A study of Mus musculus with 4 samples.

Results

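Inflammasomes are protein assemblies that form in the cytosol when a sensor meets a microbial product or a sign of cell damage. The 10 genes described here encode 6 sensors (Nlrp6, Nlrp3, Nlrp10, Nlrc4, Naip1 and Aim2), the adaptor Pycard, also called ASC, and the caspases Casp1, Casp4 and Casp8. They were chosen by symbol, and all 10 were found among the 31227 genes of the deposited count table. Sensors of this kind recruit caspase-1, often through the adaptor, and caspase-1 cleaves the precursors of interleukin 1β and interleukin 18 as well as gasdermin D, whose freed end opens pores in the cell membrane. Caspase-4 of the mouse, also known as caspase-11, binds bacterial lipopolysaccharide and cleaves gasdermin D directly. Caspase-8 is the initiator caspase of death receptors, and it holds back necroptosis, a lytic death driven by the kinase Ripk3. The colonic epithelium lies against the gut bacteria and is a site at which the Naip and Nlrc4 sensors are known to act in mice.

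RNA was sequenced from colonic epithelial cells of mice with an epithelial knockout of Smad4 (Smad4 KO, 2 libraries, replicates 1 and 2) and of wild-type mice (WT, 2 libraries, replicates 1 and 3). Smad4 is the Smad that TGF-β and BMP signalling share. All mice were 8 to 10 weeks old and had all received 3.5% dextran sulfate sodium (DSS), which damages the lining of the colon, in their water for 5 days, with plain water until day 7. Libraries without DSS were not analysed here, so the comparison is between genotypes under DSS. The sources used here do not name the strain or the Cre driver of the knockout, nor do they say whether each library came from its own mouse. The p-values therefore rest on the spread between libraries alone, which may be technical.

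The KO libraries held 61260099 and 67927291 counts and the WT libraries 56018009 and 42577920. Levels are CPM, that is, counts relative to a TMM-adjusted library size, at which a single count stood for 0.0150 to 0.0229 CPM. Smad4 had 51.5 and 41.1 CPM in the KO libraries, against 152 and 180 CPM in the WT libraries, which goes with the labels. The 10 epithelial markers summed to 18960 to 19608 CPM in KO and 18541 to 19400 CPM in WT, with the keratin Krt8 highest. Changes are Smad4 KO over WT, tested by edgeR's quasi-likelihood test across 15838 genes with Benjamini-Hochberg adjusted p under 0.05 as the threshold. By this test 4 of the 10 epithelial markers were higher in KO, 1 was lower and 5 did not pass.

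All 10 genes passed the filter on low counts. In the KO libraries, 4 were higher (Nlrp3, Nlrc4, Casp4 and Casp8), 1 was lower (Nlrp6) and 5 did not pass (Nlrp10, Naip1, Aim2, Pycard and Casp1). Of all genes tested, 15.2% were called, 8.83% as higher and 6.4% as lower. Among the 10882 genes at least as abundant as the lowest of the 10, a limit set after the values were seen, 10.2% were called as higher and 8.13% as lower. The median log2 fold change of the 10 genes was 0.07, against 0.01 over all tested genes. The KO and WT values did not overlap for the 5 called genes and overlapped for the other 5. With 2 libraries in each genotype, a random order of the 4 values keeps the genotypes apart with a probability of 0.333. Such separation, here and for the single genes below, therefore adds little to the calls. Its share over all tested genes was not computed. Of the 5 called genes, Casp8 alone stayed called whichever of the 4 libraries was left out. Without KO replicate 1 and without KO replicate 2, Casp8 was the 1 gene still called as higher.

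**Figure D1:**
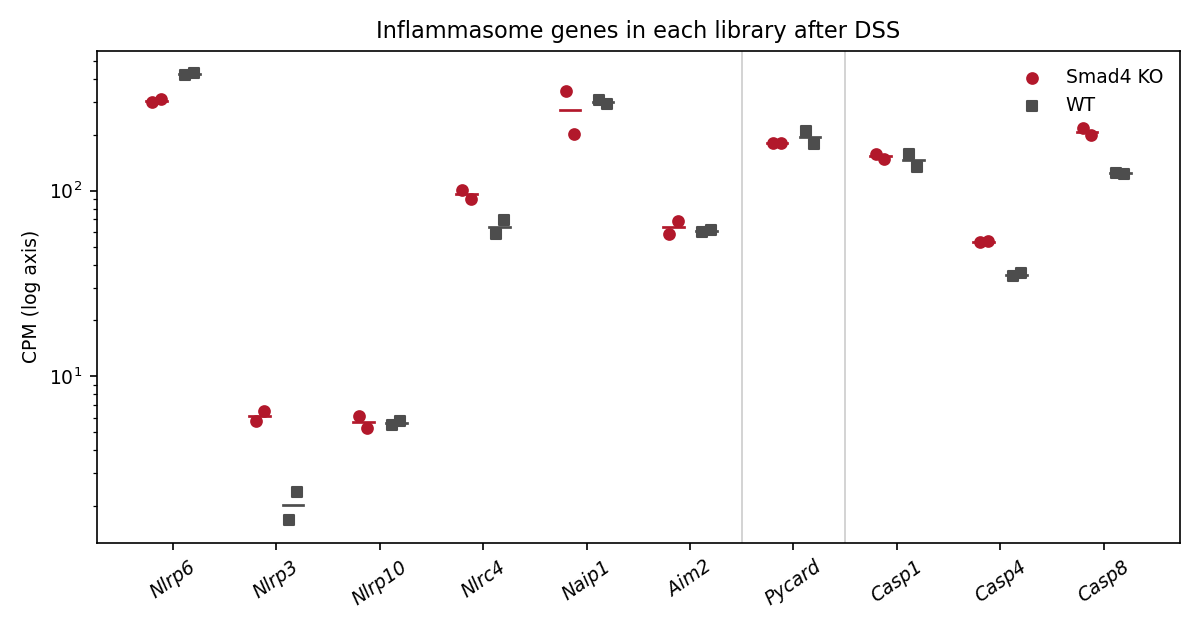
CPM (log axis) of the 10 genes in each library, with Smad4 KO as red circles, WT as grey squares and the mean of each genotype as a bar; vertical lines separate sensors, adaptor and caspases. The KO points lie above the WT points for Nlrp3, Nlrc4, Casp4 and Casp8 and below them for Nlrp6, and the KO points of Naip1 lie far apart at 344 and 202 CPM.

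Levels of different genes were compared per kilobase of exon. This length joins all annotated exons of a gene, at 1497 bases for Casp1, 3710 for Casp4 and 3800 for Pycard. A transcript can be shorter than that, so the order and the ratios between genes depend on the annotation as well as on abundance. By this measure Casp1 was highest in both genotypes, at 103 CPM per kilobase in KO and 97.8 in WT. In KO it was followed by Casp8 (71.9), Nlrp6 (60.0), Naip1 (49.3) and Pycard (47.5). In WT the order after Casp1 was Nlrp6 (83.5), Naip1 (54.5), Pycard (51.2) and Casp8 (42.9). Nlrc4, Aim2 and Casp4 lay between 14.3 and 19.9 CPM per kilobase in KO and between 9.50 and 17.3 in WT. Nlrp3 and Nlrp10 were the least abundant, at 1.51 and 1.26 CPM per kilobase in KO and 0.500 and 1.24 in WT. In KO the values of Nlrp6 and Naip1, of Naip1 and Pycard and of Nlrc4 and Aim2 overlapped between libraries, and in WT those of Naip1 and Pycard did. The other neighbours in the order did not overlap, with 2 libraries each.

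Nlrp6, a sensor of the gut epithelium in mice, had the highest mean per kilobase of the 6 sensors in either genotype. With all 4 libraries it was the only 1 of the 10 genes called as lower. It had 299.6 and 310.0 CPM in the KO libraries, against 419 and 429.8 CPM in the WT libraries. Every KO value lay under every WT value, and libraries of a genotype differed by at most 1.03-fold. The level was 1.39-fold lower in KO (log2 fold change -0.48, SE 0.0542, 95% interval -0.61 to -0.34, edgeR adjusted p = 0.00532). Without KO replicate 1 or KO replicate 2 it did not pass (log2 fold changes of -0.45 and -0.50, edgeR adjusted p = 0.0619 and 0.0510). In bulk RNA, fewer cells of a type and less RNA per cell cannot be told apart, here or for the genes that follow. The gene lies on the plus strand of chromosome 7, from 140920902 to 140929192 (GENCODE M21 on GRCm38).

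Nlrc4, which assembles with the Naip proteins once these have bound bacterial proteins, rose. It had 101 and 90.25 CPM in the KO libraries, against 58.6 and 69.5 CPM in the WT libraries. The lowest KO value stood above the highest WT value, and the WT libraries differed by 1.19-fold. The level was 1.50-fold higher in KO (0.58 on the log2 scale, SE 0.112, edgeR adjusted p = 0.0271). This was the largest adjusted p of the 5 calls, and the call was lost without WT replicate 1 (log2 fold change 0.45, edgeR adjusted p = 0.0527), without KO replicate 1 (0.50, edgeR adjusted p = 0.154) and without KO replicate 2 (0.66, edgeR adjusted p = 0.0767). Set against Nlrp6 per kilobase, Nlrp6 stood 2.80 and 3.25 times above Nlrc4 in the KO libraries and 6.76 and 5.85 times above it in the WT libraries.

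Naip1, the mouse receptor for the needle protein of type III secretion systems, split the KO libraries. It had 344 and 202 CPM in KO replicates 1 and 2, against 309 and 294 CPM in the WT libraries. The KO values lay on either side of both WT values, 1.70-fold apart, while the WT values were 1.05-fold apart. The change did not pass (log2 fold change -0.14, SE 0.242, 95% interval -0.76 to 0.47, edgeR adjusted p = 0.750). Without KO replicate 1 the gene was called as lower (log2 fold change -0.57, edgeR adjusted p = 0.0393), and without KO replicate 2 its log2 fold change was 0.19.

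The other Naip genes did not split in this way. Naip2, the receptor for the rod protein of the same secretion systems, had 135 and 120.4 CPM in KO and 121 and 140.4 CPM in WT. Naip6 had 311 and 304 CPM in KO and 285 and 313 CPM in WT, and it did not pass (edgeR adjusted p = 0.749). Naip5, which like Naip6 binds flagellin, rose 1.37-fold, with 169 and 179 CPM in KO and 124 and 131 CPM in WT (edgeR adjusted p = 0.0127), a call lost without KO replicate 1 and without KO replicate 2 (edgeR adjusted p up to 0.116). These genes lie close together on the minus strand of chromosome 13, with Naip1 from 100407764 to 100452869 and Naip5 from 100211739 to 100246323. They resemble each other, so reads may have been assigned to the wrong gene, and their separate values are uncertain. With the 4 rows added, the family had 959 and 805 CPM in KO and 839 and 878 CPM in WT (log2 fold change 0.04, SE 0.0911, edgeR adjusted p = 0.829).

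**Figure D2:**
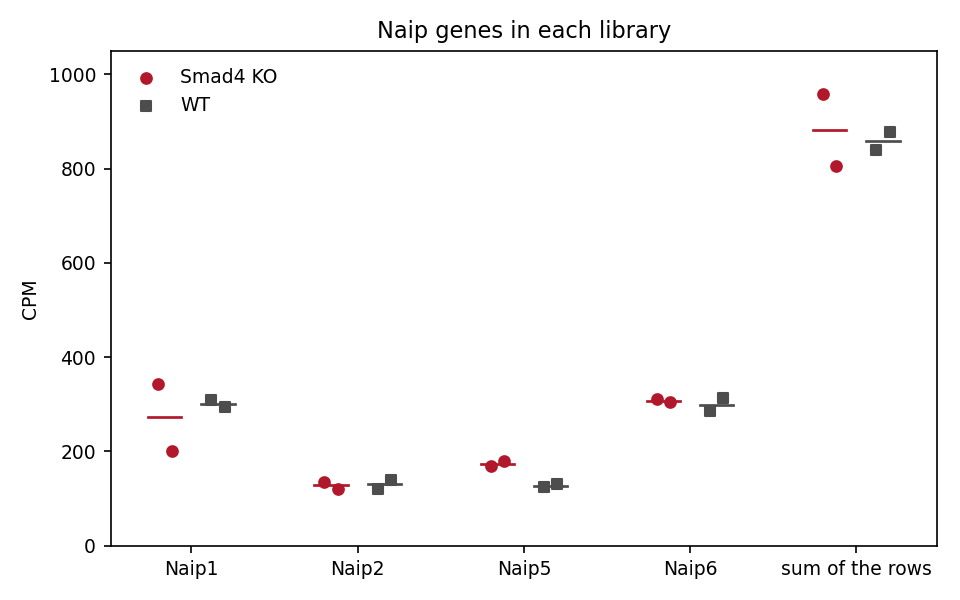
CPM of Naip1, Naip2, Naip5, Naip6 and of their added rows in each library (Smad4 KO red circles, WT grey squares, bars for means, axis from 0). Naip1 separates the KO libraries at 344 and 202 CPM, Naip5 is higher in both KO libraries, and the sum overlaps between genotypes.

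Nlrp3, a sensor that responds to potassium efflux and is best known in macrophages and neutrophils, had the largest fold change of the 10 genes at a low level. It had 345 and 435 counts in the KO libraries, or 5.74 and 6.52 CPM, against 95 and 104 counts in the WT libraries, or 1.68 and 2.39 CPM. Both KO values were above both WT values. The level was 3.03-fold higher in KO (log2 fold change 1.60, SE 0.260, 95% interval 0.94 to 2.26, edgeR adjusted p = 0.0162), and the call was lost without KO replicate 1 and without KO replicate 2 (edgeR adjusted p = 0.0668 and 0.0972).

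Some markers of leukocytes were higher in the same KO libraries. Of 10 neutrophil markers, 5 were higher, 2 did not pass and the other 3 (Mpo, Elane and Camp) had no count in any library. Their summed level was 427 to 439.5 CPM in KO and 103 to 129.9 CPM in WT, of which Ly6g made up 324 ± 7.53 CPM in KO and 105 ± 16.2 CPM in WT (SD, n = 2 each). The neutrophil protein S100a9 had 43.0 ± 0.488 CPM in KO and 3.91 ± 0.758 CPM in WT. Of 10 macrophage markers, Lyz2 (18.8 ± 0.0969 CPM in KO and 4.67 ± 1.28 CPM in WT) and Csf1r (8.14 ± 1.40 CPM in KO and 3.22 ± 0.0464 CPM in WT) were higher and 8 did not pass, and their sum of 172 to 177 CPM in KO and 177 to 195 CPM in WT was mostly Cd14. Of those 8, Cd14 (mean of 135 CPM in KO and 170.2 CPM in WT) and Mrc1 (2.69 CPM in KO and 4.32 CPM in WT) lay below WT in both KO libraries, and the other 6 lay above it. Of 10 T and NK cell markers 3 were higher, with sums of 21.3 to 23.4 CPM in KO and 8.59 to 9.86 CPM in WT. Of 8 dendritic cell markers, 4 passed the filter on low counts and were tested, and 1 of them, Itgax, was higher. The part of these cells in the rise of Nlrp3, or of the other genes, was not tested.

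Aim2, which binds double-stranded DNA in the cytosol, had 58.3 and 68.7 CPM in the KO libraries, against 59.9 and 61.0 CPM in the WT libraries. The WT values lay between the KO values, and the change did not pass (log2 fold change 0.07, 95% interval -0.18 to 0.33, edgeR adjusted p = 0.705). Nlrp10, which lacks the leucine-rich repeats of its relatives, had 6.09 and 5.28 CPM in KO and 5.45 and 5.73 CPM in WT (95% interval of the log2 fold change -0.43 to 0.48, edgeR adjusted p = 0.953). The interval of Nlrp10 covers changes of 0.741 to 1.39-fold, so a moderate difference was not detectable with these libraries. The gene model of Aim2 overlaps that of Cadm3 on the other strand, with no shared exon bases.

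Pycard, the adaptor that links sensors to caspase-1, had 181 and 180.0 CPM in the KO libraries, against 211 and 178 CPM in the WT libraries. The KO values were nearly the same and lay between the WT values, which were 1.18-fold apart. The change did not pass (log2 fold change -0.11, 95% interval -0.34 to 0.13, edgeR adjusted p = 0.515). Of its exon bases, 485 are shared with an unnamed gene model on the other strand, and the sources used here do not say whether strand was kept.

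Casp1, the caspase that matures interleukin 1β and interleukin 18, had 158 and 149 CPM in the KO libraries, against 158 and 135 CPM in the WT libraries. The ranges overlapped, and the change did not pass (log2 fold change 0.07, 95% interval -0.18 to 0.31, edgeR adjusted p = 0.700). Casp4 starts 1562 bases beyond the end of Casp1 on the same strand of chromosome 9 (Casp1 from 5298517 to 5307265, Casp4 from 5308828 to 5336783). Casp4 had 52.6 and 53.6 CPM in the KO libraries, against 34.5 and 36.0 CPM in the WT libraries. Libraries of a genotype differed by at most 1.04-fold, and both KO values were above both WT values. Casp4 was 1.51-fold higher in KO (0.59 on the log2 scale, SE 0.0823, edgeR adjusted p = 0.00983), a call lost without KO replicate 1 and without KO replicate 2 (edgeR adjusted p = 0.0772 and 0.0826). Per kilobase, Casp4 was at 0.134 and 0.145 of the level of Casp1 in the KO libraries and at 0.0880 and 0.108 of it in the WT libraries. Casp12, the next gene on that strand, had 4.43 ± 0.477 CPM in KO and 2.28 ± 0.675 CPM in WT (SD, n = 2 each) and did not pass. With the rows of these 3 similar genes added, the sum had 215 and 207 CPM in KO and 194 and 173 CPM in WT and did not pass (0.20 on the log2 scale, edgeR adjusted p = 0.163). Casp1 holds most of the counts in this sum.

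The start regions of this neighbouring pair are shown because Casp4 rose and Casp1 did not pass. They are RefSeq windows on GRCm38.p6, 250 bases before the start site and 50 from it, on the plus strand, at chr9:5308599-5308898 for the more upstream of the 2 listed Casp4 starts and chr9:5298267-5298566 for Casp1. Capitals mark the match to an NF-κB pattern, spelled GGGA, any base, TT, any base, CC, that begins 92 bases before the Casp4 start.
Casp4: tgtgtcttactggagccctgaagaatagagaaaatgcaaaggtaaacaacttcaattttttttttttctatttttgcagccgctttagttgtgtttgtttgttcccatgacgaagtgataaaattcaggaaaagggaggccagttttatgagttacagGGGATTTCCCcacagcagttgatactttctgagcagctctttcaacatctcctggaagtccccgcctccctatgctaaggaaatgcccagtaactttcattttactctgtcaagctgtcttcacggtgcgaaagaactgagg
Casp1: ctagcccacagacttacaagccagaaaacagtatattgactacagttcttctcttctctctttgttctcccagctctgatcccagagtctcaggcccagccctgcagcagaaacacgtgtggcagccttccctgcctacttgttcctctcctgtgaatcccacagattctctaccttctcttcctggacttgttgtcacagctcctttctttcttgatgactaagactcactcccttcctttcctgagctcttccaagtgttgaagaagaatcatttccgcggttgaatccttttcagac
The listed windows cover 9 of the 10 genes in 11 windows, and both windows of Casp4, which overlap, hold this match. Both strands were also searched for the interferon regulatory factor pattern GAAA, any 2 bases, GAAA and for the Smad GC box GGCGCC. No other window held any of these 3 patterns. The start sites of the Casp8 and Aim2 windows lie 7128 and 69725 bases from the starts of their GENCODE gene models. For these genes the region at the GENCODE start was not searched. Of 32851 RefSeq windows of this length, 1.20% held the NF-κB pattern, 3.44% the interferon regulatory factor pattern and 11.9% the Smad box. A match is a run of letters and not a measured binding site, and no match says only that these letters are not in the window.

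Casp8 rose, with the smallest adjusted p of the 10 genes. It had 218 and 198 CPM in the KO libraries, against 125 and 123 CPM in the WT libraries, on 13085 and 13241 counts in KO and 7098 and 5365 counts in WT. The lowest KO value was well above both WT values, which were 1.02-fold apart. The level was 1.68-fold higher in KO (log2 fold change 0.75, SE 0.0719, 95% interval 0.56 to 0.93, edgeR adjusted p = 0.00307). Across the 4 fits that left out a library, its log2 fold change was 0.68 to 0.81 with an edgeR adjusted p of at most 0.0242. Per kilobase, Casp8 stood at 0.712 and 0.690 of the level of Casp1 in the KO libraries and at 0.409 and 0.473 of it in the WT libraries. The gene lies on the plus strand of chromosome 1, from 58795374 to 58847503.

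**Figure D3:**
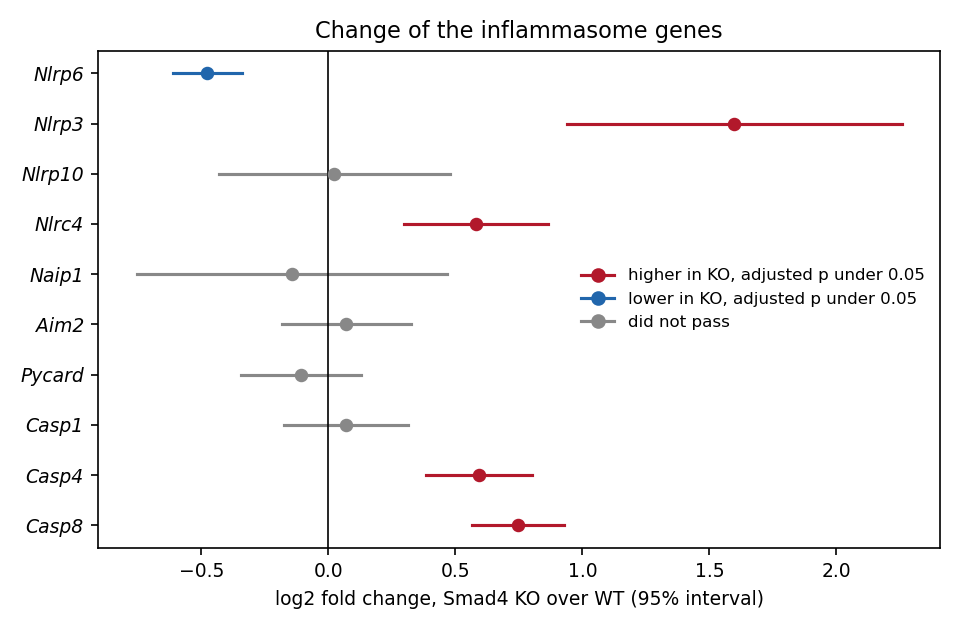
Log2 fold change of each gene, Smad4 KO over WT, as a point with its 95% interval (red higher in KO, blue lower in KO, grey did not pass). The intervals of Nlrp3, Nlrc4, Casp4 and Casp8 lie above 0, that of Nlrp6 lies below 0, and that of Naip1 is wide, from -0.76 to 0.47.

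The genes whose profile over the 4 libraries was most like that of Casp8, among those with a mean of at least 5 CPM, were Lrrc66, Smoc2 and Slc36a4. Their centred log2 CPM differed from that of Casp8 by a root mean square of 0.0163, 0.0213 and 0.0233. For Nlrp6 they were Wipi1, Agpat1 and Fam126a, at 0.00939, 0.0128 and 0.0161. With 4 libraries in 2 genotypes this likeness mostly describes the size of the genotype difference.

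The caspase substrates moved in opposite directions. Il1b, the precursor of interleukin 1β, had 58.9 and 58.3 CPM in the KO libraries, against 12.9 and 11.8 CPM in the WT libraries. It was 4.74-fold higher in KO (2.24 on the log2 scale, SE 0.101, edgeR adjusted p = 0.000364). Il18, the precursor of interleukin 18 and in the gut largely a product of epithelial cells, had 63.0 and 59.5 CPM in KO, against 107 and 114 CPM in WT. It was 1.81-fold lower in KO (-0.85 on the log2 scale, SE 0.0750, edgeR adjusted p = 0.00235). Gsdmd, which encodes gasdermin D, had 346 and 355 CPM in KO, against 254 and 256 CPM in WT, a 1.37-fold rise (edgeR adjusted p = 0.00567) that did not pass without KO replicate 2 (edgeR adjusted p = 0.0699). Il1b and Il18 stayed called whichever of the 4 libraries was left out. In the same libraries 5 of 10 neutrophil markers and 2 of 10 macrophage markers were higher in KO, as given above, and the part of such cells in the rise of Il1b was not tested.

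**Figure D4:**
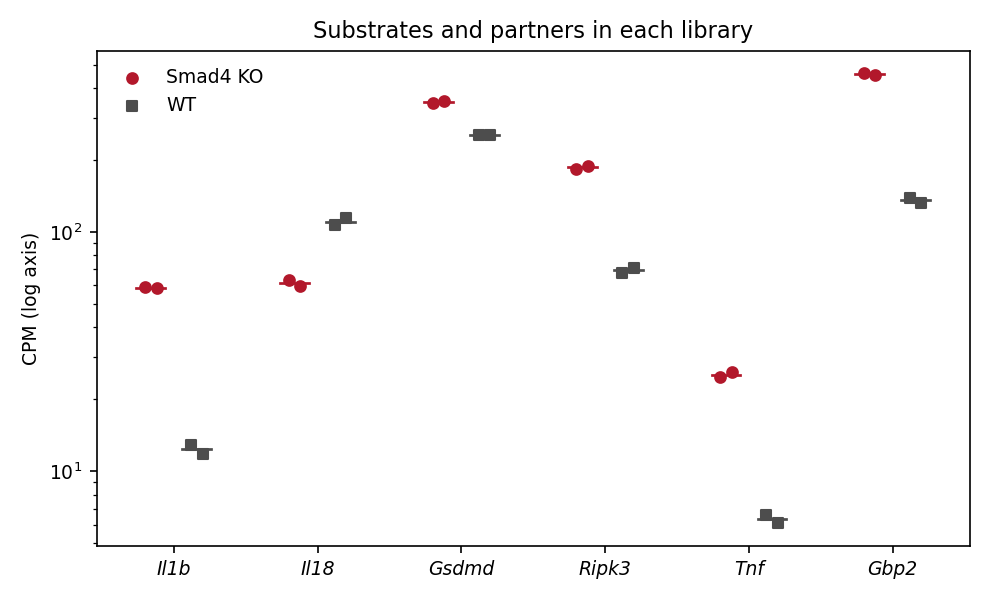
CPM (log axis) of the caspase-1 substrates Il1b, Il18 and Gsdmd, of Ripk3 and Tnf and of the interferon-induced Gbp2 in each library (Smad4 KO red circles, WT grey squares, bars for means). The KO points are above the WT points for every gene shown except Il18, where they are below.

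Of 15 genes for substrates, cytokine receptors and other outputs, 6 rose, 1 fell and 8 did not pass, with a median log2 fold change of 0.28. Beside Il1b and Gsdmd, the risen genes were the cytokine Il1a (9.26 ± 2.69 CPM in KO and 2.09 ± 0.444 CPM in WT), the decoy receptor Il1r2 (3.30 ± 0.443 CPM in KO and 0.458 ± 0.0987 CPM in WT), the gasdermin Gsdme (26.9 ± 1.78 CPM in KO and 12.6 ± 1.80 CPM in WT) and the protease inhibitor Serpinb1a (582 ± 12 CPM in KO and 478 ± 19.6 CPM in WT; SD, n = 2 each). Serpinb1a lost its call without KO replicate 1 and without KO replicate 2, Il1r2 without KO replicate 1 and Gsdme without KO replicate 2.

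Casp8 works with a set of partners, and Ripk3, the kinase that it restrains, rose as well. Ripk3 had 184 and 189 CPM in the KO libraries, against 67.7 and 70.8 CPM in the WT libraries, a 2.69-fold rise (log2 fold change 1.43, SE 0.0660, edgeR adjusted p = 0.000393). Whether this rise differed from that of Casp8 was not tested. Its substrate Mlkl, the pore former of necroptosis, rose 1.40-fold (52.4 ± 0.238 CPM in KO and 37.5 ± 2.82 CPM in WT, edgeR adjusted p = 0.0260). Cflar, which pairs with caspase-8 and limits its activity, rose 1.36-fold (98.8 ± 3.28 CPM in KO and 72.4 ± 1.05 CPM in WT, edgeR adjusted p = 0.0128). Both Mlkl and Cflar lost their calls without KO replicate 1 and without KO replicate 2 (edgeR adjusted p up to 0.151). The adaptor Fadd had 28.7 ± 4.24 CPM in KO and 29.1 ± 0.802 CPM in WT, and the kinase Ripk1 70.6 ± 3.84 CPM in KO and 64.1 ± 2.09 CPM in WT, and neither passed. The cytokine Tnf rose (25.4 ± 0.877 CPM in KO and 6.34 ± 0.365 CPM in WT, edgeR adjusted p = 0.000719) and its receptor Tnfrsf1a 1.53-fold (166 ± 0.153 CPM in KO and 108 ± 3.48 CPM in WT, edgeR adjusted p = 0.00392). The death ligand Tnfsf10, also called TRAIL, fell (49.9 ± 0.0969 CPM in KO and 71.9 ± 3.22 CPM in WT, edgeR adjusted p = 0.0107) but lost its call without KO replicate 1 and without KO replicate 2. Of the 18 genes of this list, 6 rose, 1 fell and 11 did not pass, with a median log2 fold change of 0.41. The same 5 neutrophil and 2 macrophage markers were higher in these KO libraries, while the other 8 macrophage markers did not pass. The part of such cells in the rise of Tnf was not tested.

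Of 7 other caspases, Casp2 rose, Casp14 fell and 5 did not pass. Casp14, known from the differentiating epidermis, was 6.34-fold lower in KO (3.47 ± 0.291 CPM in KO and 22.0 ± 0.270 CPM in WT, log2 fold change -2.66, edgeR adjusted p = 0.000488). Casp2 was 1.47-fold higher (82.4 ± 2.95 CPM in KO and 56.0 ± 0.568 CPM in WT, edgeR adjusted p = 0.00746), a call lost without KO replicate 1 and without KO replicate 2.

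Of 23 tested genes for other sensors and their control, 5 rose and 18 did not pass. None fell by the edgeR test, nor by DESeq2 or limma-voom, and 1 was lower at an unadjusted p under 0.05. The DNA sensor family gene Ifi204 rose 6.75-fold (13.4 ± 3.85 CPM in KO and 1.98 ± 0.113 CPM in WT, edgeR adjusted p = 0.00278) and stayed called whichever of the 4 libraries was left out. Nlrc5, which drives genes of antigen presentation, rose 1.63-fold (42.4 ± 0.400 CPM in KO and 26.1 ± 0.988 CPM in WT, edgeR adjusted p = 0.00803). Zbp1, a nucleic acid sensor that can engage Ripk3, rose 1.48-fold (159 ± 3.80 CPM in KO and 108 ± 10.7 CPM in WT, edgeR adjusted p = 0.0143). Nlrc5, Zbp1, Naip5 and the fifth risen gene, Ifi205, lost their calls without KO replicate 1 and without KO replicate 2. Of genes that interferons induce, 10 of 17 tested rose and 7 did not pass, with a median log2 fold change of 0.97. The 4 with the smallest p were the GTPases Gbp2 (457 ± 6.70 CPM in KO and 136 ± 4.40 CPM in WT), Irgm1 (173 ± 0.512 CPM in KO and 86.0 ± 0.597 CPM in WT) and Igtp (144 ± 5.51 CPM in KO and 65.9 ± 1.53 CPM in WT) and the antiviral protein Ifit2 (131 ± 12.1 CPM in KO and 42.4 ± 1.39 CPM in WT), with edgeR adjusted p of at most 0.000786. Of the leukocyte markers given above, 5 of 10 neutrophil, 2 of 10 macrophage and 3 of 10 T and NK cell markers were higher in the same KO libraries, and the part of such cells in these changes was not tested.

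Of all genes tested, 8.83% were called as higher and 6.4% as lower, the shares to set beside the counts of each list. Over the 5 lists, 28 of 80 tested genes rose (35%) and 3 fell (3.75%), with a median log2 fold change of 0.41. Without KO replicate 1 the fits called 18 as higher and without KO replicate 2 they called 16.

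**Figure D5:**
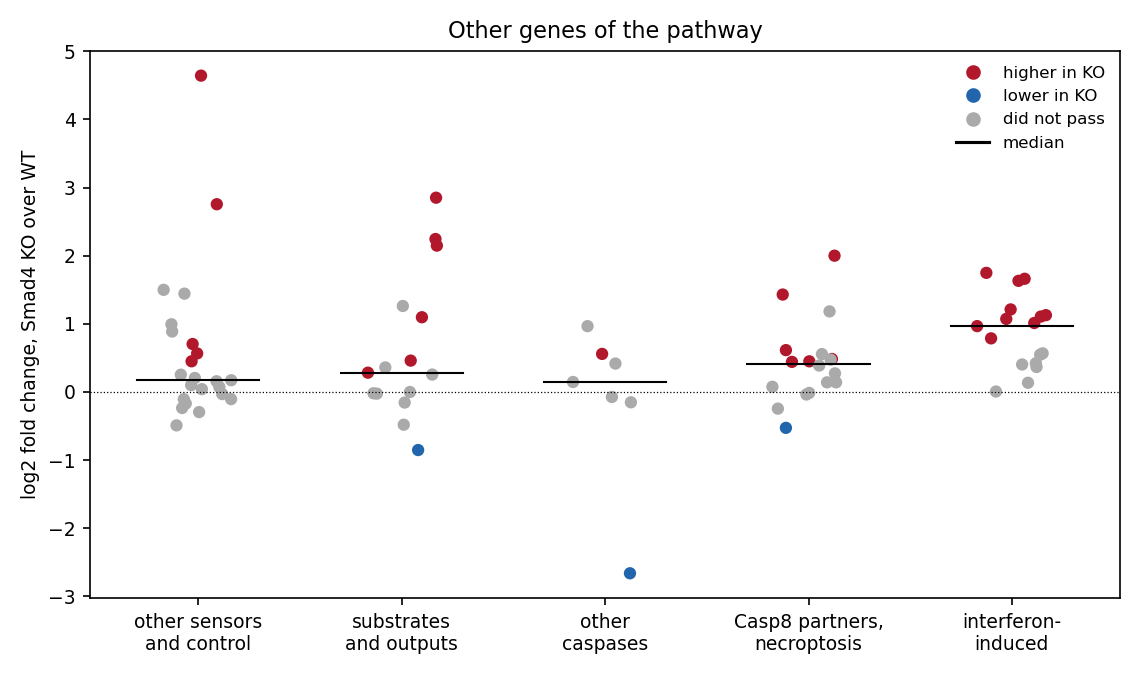
Log2 fold change, Smad4 KO over WT, of each tested gene in the 5 lists of other pathway genes (red higher in KO, blue lower in KO, grey did not pass, bar for the median). The medians lie between 0.15 for other caspases and 0.97 for interferon-induced genes, and 3 points are blue (Il18, Casp14 and Tnfsf10).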

How the data were processed

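The authors deposited a table of raw, whole-number gene counts for 4 libraries, and each column was matched to its library by title. Per the submitters' processing notes, FastQC 0.19.7, HISAT2 2.1.0 and StringTie 1.3.3b were used, along with SAMtools 1.9, on GRCm38 (mm10). The sources used here do not say which tool counted, with which annotation, or how multi-mapping reads were handled. GENCODE M21 on GRCm38 named 31207 of 31227 gene IDs and gave positions and exon lengths.

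Of 19618 genes with any count, edgeR 4.0.16 (R 4.3.3) kept 15838 by filterByExpr. Counts were scaled by TMM and fitted with genotype as the only term (glmQLFit, glmQLFTest), and p-values were adjusted over all tested genes. The SE is the log2 fold change divided by the square root of F, and 95% intervals use the t quantile at the fit's degrees of freedom. The biological coefficient of variation was 0.196. In a test on 1 simulated data set, genes were given a change larger than that of any of the inflammasome genes, and most of them were called. The test therefore does not show how often smaller changes are found. The share of false calls in it was above the nominal level of the threshold. Alternatives used other scalings, other filters, DESeq2 1.42.0, limma-voom (limma 3.58.1), each library left out, and added rows of similar genes.

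The 10 genes, the lists and the rule for named genes were chosen with earlier results of these data known. The rule took the 10 genes, the up to 4 genes of each pathway list with the smallest p, Il1b, Il18 and Gsdmd, the most abundant marker of each cell type, Smad4, and the 3 profiles most like the firmest call in each direction. Other genes named were chosen after their values were seen, among them Naip2, Naip6, S100a9, Lyz2 and further members of the lists. Of the marker lists not described above, fibroblast genes had 2 of 8 tested higher, with a sum of 62.9 to 73.2 CPM in KO and 33.0 to 38.9 CPM in WT. The 5 endothelial and 3 B and plasma cell genes tested did not pass. Some members of these lists and 1 of the promoter patterns searched are not reported here.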

Additional observations from a re-analysis of the deposited data

How the results depend on the processing

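Across 3 other scalings, 2 other filters on low counts, DESeq2's Wald test and limma-voom, the 4 higher and 1 lower inflammasome genes kept their counts, and DESeq2 called 1524 genes of the whole table as lower, against 1014. Leaving out a library gave 547 to 1504 genes higher and 425 to 1069 lower, 1 to 4 inflammasome genes higher and 0 to 1 lower, and 16 to 30 pathway genes higher and 2 to 4 lower; the lowest counts of higher genes came without a KO library. Without KO replicate 2 no inflammasome gene was lower by edgeR (1 at an unadjusted p under 0.05), and without KO replicate 1 the 1 lower gene was Naip1 and not Nlrp6. The cause of these losses was not tested, although such a fit has only 1 KO library, which is assumed to vary like the others. Uncalled genes changed sign in places: Nlrp10 with library totals (-0.029), Naip1 with the Naip rows added (0.039), and, without a library, Nlrp10 (-0.079 to 0.12), Naip1 (-0.57 to 0.19), Aim2 (-0.052 to 0.19), Pycard (-0.22 to 0.0064) and Casp1 (-0.041 to 0.18; all log2 fold changes). No paired analysis was possible because the genotypes share only replicate number 1.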

Other observations

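Like Naip1, some other genes of the lists split the libraries of a genotype; they were chosen after their values were seen. Il1rn, the antagonist of the interleukin 1 receptor, had 31.5 and 109 CPM in KO replicates 1 and 2, against 82.4 and 74.2 CPM in the WT libraries. The interferon-induced transcription factor Irf1 had 169.6 and 349 CPM in KO and 261 and 256 CPM in WT. Oasl2, an antiviral protein, had 74.2 and 145 CPM in KO and 77.6 and 70.6 CPM in WT. Nek7, a kinase that binds Nlrp3, had 69.5 and 68.5 CPM in KO and 16.2 and 53.3 CPM in WT replicates 1 and 3. None of these changes passed (edgeR adjusted p of 0.277 to 0.994 over the 4 genes), but each was called in at least 1 fit that left out a library, with a lowest edgeR adjusted p of 0.0125 for Il1rn, 0.0389 for Irf1, 0.0153 for Oasl2 and 0.00124 for Nek7.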
